A study of Homo sapiens with 60 samples.

Results

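The comparison described here is between HT29 cells given the medium dose of Guibi-tang, 100 µg/mL of a water extract for 24 h (3 libraries), and HT29 cells given vehicle for the same 24 h (3 libraries). The members were taken by their labels alone, which makes 6 of the 60 samples of the series, and all genes were examined in them. HT29 is a long-established epithelial line from a human colorectal adenocarcinoma, so the data speak for 1 tumour line in culture. Guibi-tang is a multi-herb formula of East Asian medicine. The vehicle is 0.1% DMSO by the sample characteristics but 2% by the design text, which was not settled here, and whether cells given extract also received DMSO is not stated in the labels used here. Further groups enter mainly where the medium dose is set against them: Guibi-tang at the low dose (20 µg/mL, 3 libraries) and the high dose (500 µg/mL, 3 libraries), and Saengmaek-san, another formula, as a water extract at its medium dose (100 µg/mL, 3 libraries), all for 24 h. For a few genes, means of the other replicated groups given water extracts for 24 h are also printed. Nothing in the labels says that the replicates were separate cultures, so the p-values measure the spread between libraries, which may be technical.

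Colonic epithelial cells can call in immune cells themselves. NF-kB, a family of transcription factors held in the cytoplasm by inhibitor proteins, is released by microbial products or inflammatory cytokines and turns on genes for chemokines, adhesion molecules, acute-phase and complement proteins and antimicrobial proteins. The same factors turn on their own inhibitors, and NF-kB and interferon signalling often overlap in the genes they induce. Plant extracts are also commonly examined for the xenobiotic receptor AhR and the oxidant-responsive factor NRF2, whose targets detoxify foreign compounds.

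Total counts were 29.8, 38.5 and 33.1 M in the vehicle libraries and 23.4, 24.9 and 24.3 M in the medium-dose libraries, and 17049 genes entered the tests. Raw counts printed below thus come from deeper libraries in vehicle. Markers of colonic epithelium were present, 14 of 15 at a mean of 1 CPM (the gene's count scaled to a common library total) or more in both groups, led by KRT8. None of the T lymphocyte, B lymphocyte or neutrophil markers reached 1 CPM in either group. Of 8 monocyte and macrophage markers 3 did, and the summed level of that list was 10.8 to 11.7 CPM in vehicle and 11.1 to 12.2 CPM at the medium dose. Of 10 fibroblast markers 2 did, summing to 4.11 to 4.70 CPM in vehicle and 3.36 to 3.95 CPM at the medium dose. The endothelial list was carried by ESAM, at a mean of 46.1 CPM in vehicle and 44.2 CPM at the medium dose. Mitochondrially encoded genes took 12.8%, 12.8% and 13.5% of the counts in vehicle against 11.4%, 11.3% and 11% at the medium dose. Counts are relative, so fewer cells of a type and less RNA per cell cannot be told apart.

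The libraries did not stand evenly. The first principal component of log2 CPM, with 13.1% of the variance, divided the 57 libraries of replicated groups into 31 earlier-numbered and 26 later-numbered ones. All 3 vehicle libraries and replicate 1 of the medium dose were earlier-numbered, and replicates 2 and 3 of the medium dose were later-numbered, so most of the comparison runs across this divide. What the divide stands for is not given in the labels. Median total counts were 34.7 M in the earlier-numbered libraries and 25.0 M in the later-numbered ones. Counts are therefore given also from a fit with a term for the library part. Replicate 3 of the medium dose also stood apart on the second component, with 4.61% of the variance, at 27.0 against 5.62 and -1.68 for replicates 1 and 2 and 4.87 to 11 for vehicle. The keratin gene KRT81, among the leading genes of that component, was at 0.0426, 0.122 and 4.57 CPM in medium-dose replicates 1 to 3 and at 0.0612 to 0.202 CPM in vehicle. What set this library apart was not tested, and counts of list members without it are given where they differ.

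**Figure D1:**
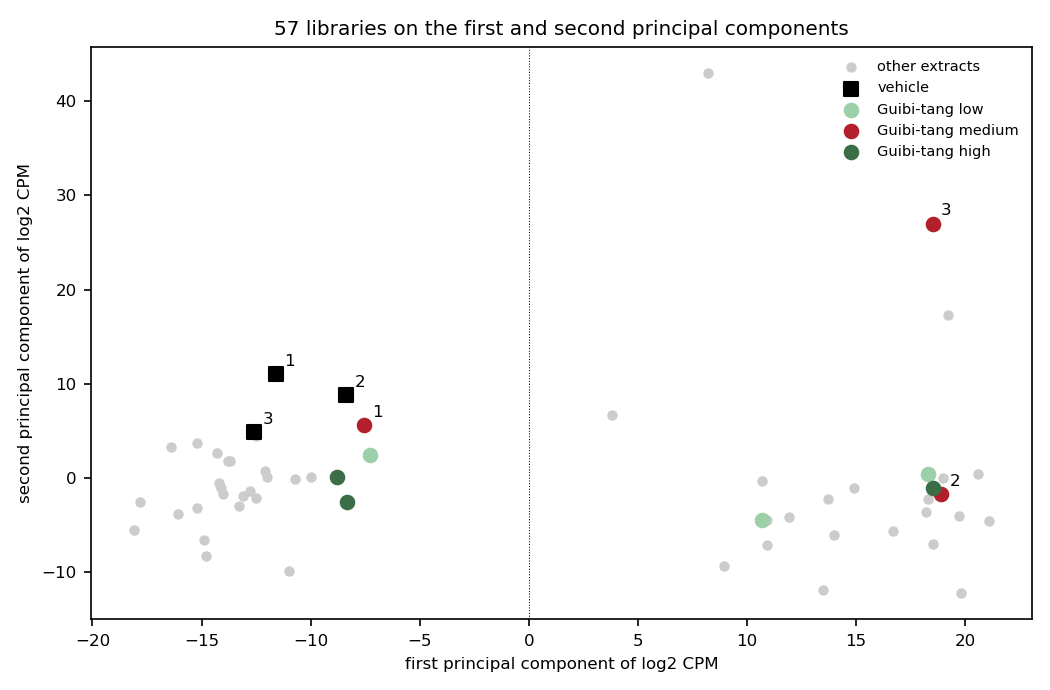
Each point is 1 of 57 libraries on the first and second principal components of log2 CPM (arbitrary units), with vehicle and medium-dose libraries numbered by replicate. The 3 vehicle libraries and medium-dose replicate 1 lie left of 0 on the first component, replicates 2 and 3 lie right of it, and replicate 3 sits at 27.0 on the second.

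At the medium dose a limited set of genes rose, led by chemokines and by epithelial defence and complement proteins, and other genes fell, most of them by less. Of the 17049 genes, 183 differed from vehicle (1.07%), 98 higher (0.575%) and 85 lower (0.499%), at an adjusted p under 0.05. Unless DESeq2 is named, every adjusted p comes from edgeR's quasi-likelihood test with Benjamini-Hochberg adjustment across the genes tested. Changes of at least 1 on the log2 scale were found in 26 of the higher and 4 of the lower genes. The 4, looked up after the values were seen, were TSSK6, the pseudogene GUSBP14 and a pair of genes listed without a symbol. The median log2 difference over all genes was 0.01. With the term for the library part 138 genes passed (0.809%), 83 higher and 55 lower. The same 88 genes, 60 higher and 28 lower, passed in both fits. The count moved with single libraries: it was 72, 116 and 71 without vehicle replicate 1, 2 or 3, and 604, 85 and 121 without medium-dose replicate 1, 2 or 3. The balance of higher and lower calls moved too: 73 and 12 without medium-dose replicate 2, 51 and 21 without vehicle replicate 1, 49 and 22 without vehicle replicate 3, and 120 and 149 with DESeq2. With the term and without medium-dose replicate 3 the count was 124. Within the earlier-numbered libraries alone, 1 medium-dose library against 3 of vehicle, it was 61, on the assumption that the lone library varies like those of other groups.

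**Figure D2:**
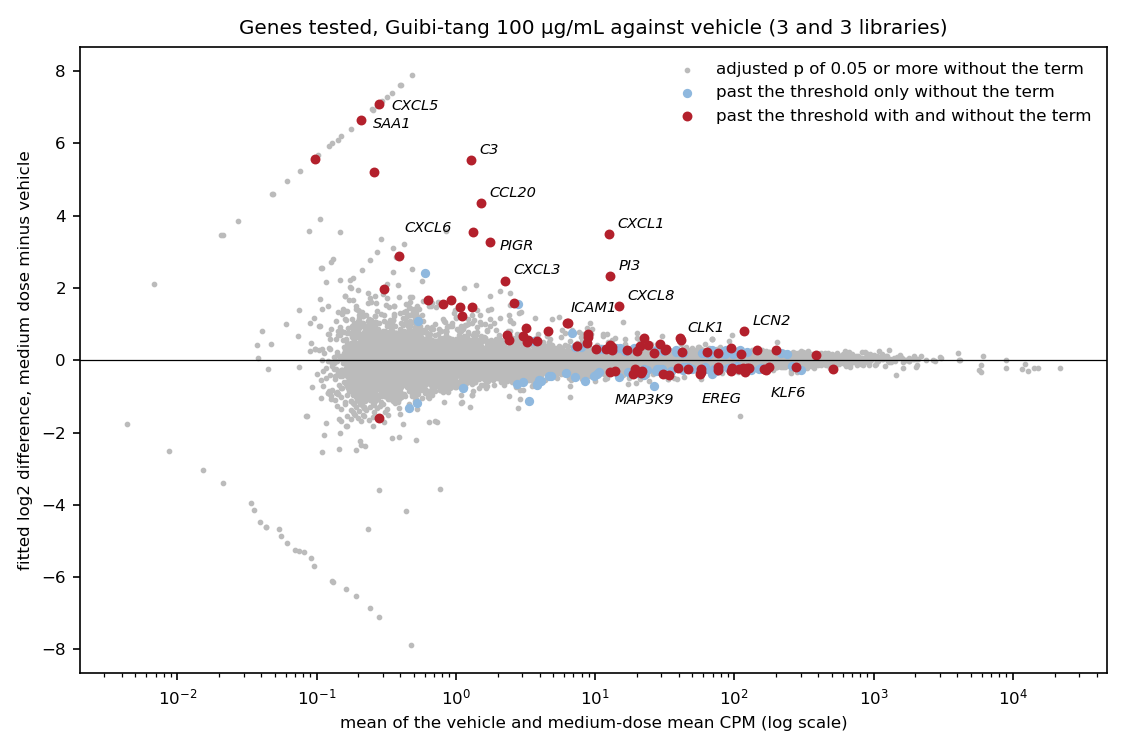
Each point is 1 tested gene, with its fitted log2 difference (medium dose minus vehicle) against the mean of the vehicle and medium-dose mean CPM on a log scale. Red points passed the threshold with and without the term for the library part, and light blue points only without it. CXCL1, PI3, CXCL8 and LCN2 lie above the cloud at readily counted levels, and the diagonal arms hold genes with no counts in 1 group, whose fitted values depend on the prior count.

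The chemokine list moved most. Of its 18 measured members 9 were higher and none lower, with and without the library-part term and also without medium-dose replicate 3, and 8 were higher within the earlier-numbered libraries. DESeq2 called 5 and gave no adjusted p for CXCL2, CXCL5, IL32 and CSF1. The median log2 difference over the list was 1.25. Members at or near 0 in vehicle, such as CXCL5 and CCL20, passed the low-count filter through other groups. They could hardly have been called lower, so the share higher and the median depend in part on that filter. CXCL1, a chemokine that draws neutrophils through the receptor CXCR2, was at 2.22, 2.20 and 1.80 CPM in vehicle and at 21.4, 24.6 and 23.6 CPM at the medium dose. Every medium-dose library lay far above every vehicle library. The fitted log2 difference was 3.48 ± 0.14 (SE; adjusted p = 2.63e-24), a fold of 11.2, and it was 3.28 ± 0.13 with the term and 3.36 within the earlier-numbered libraries.

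CXCL8, which encodes the neutrophil chemokine interleukin-8, was at 8.00, 7.96 and 7.65 CPM in vehicle and at 20.6, 26.1 and 19.8 CPM at the medium dose. The groups did not overlap, and the log2 difference was 1.49 ± 0.10 (adjusted p = 6.25e-17). CCL20, the ligand of CCR6 on dendritic cells and Th17 cells, had 6, 4 and 4 counts in vehicle and 68, 77 and 65 at the medium dose. Its ratio was 20.9, with a 95% interval for counting error of 12.2 to 38.8, and its fitted log2 difference was 4.34 ± 0.32 (adjusted p = 6.46e-15).

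Other CXC chemokines of the neutrophil-attracting kind rose with them. CXCL6 was at 0.202, 0.288 and 0.122 CPM in vehicle and 2.04, 2.89 and 2.47 CPM at the medium dose (log2 difference 3.54 ± 0.33, adjusted p = 2.9e-11). CXCL3 went from 1.14, 0.524 and 0.795 CPM to 3.58, 4.19 and 3.33 CPM (2.20 ± 0.19, adjusted p = 1.12e-12). No vehicle library overlapped the medium-dose libraries for either gene. CXCL2 rose by 1.48 ± 0.22 on the log2 scale (adjusted p = 9.03e-06). CXCL5 had no count in vehicle and 10, 15 and 16 counts at the medium dose (adjusted p = 4.71e-08). CXCL1, CXCL2 and CXCL3 are close paralogs, and expected counts divide shared reads between them, so their separate sizes are less certain than their joint direction.

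The list also held cytokines of other kinds. CSF1, the growth factor of macrophages, rose from 0.504, 0.602 and 0.581 CPM to 1.62, 1.51 and 1.65 CPM (log2 difference 1.49 ± 0.22, adjusted p = 8.51e-06). IL32, a proinflammatory cytokine, rose by 1.23 ± 0.22 (adjusted p = 0.000514), but the difference was 0.94 with an adjusted p of 0.401 within the earlier-numbered libraries. IL17C, an epithelial cytokine that acts back on epithelium, was named after its values were seen and stands outside the list. It had 4, 2 and 3 counts in vehicle and 17, 17 and 16 at the medium dose (ratio 7.73, counting interval 3.76 to 17.9). All 3 medium-dose libraries were above every vehicle library for each of these genes.

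The promoters of 5 of the genes that rose are printed as examples of a loose letter pattern of the kind bound by NF-kB. All 5 hold the pattern, which some other genes that rose also hold and some do not. Each is the 250 bases before the RefSeq start of 1 transcript per gene (GRCh38.p14), 5′ to 3′ on the gene's strand, and capitals mark matches to GGNNNTTCC or its complement GGAANNNCC. They lie at chr4:73869143-73869392 (CXCL1), chr4:73740319-73740568 (CXCL8), chr2:227813592-227813841 (CCL20), chr19:10270870-10271119 (ICAM1) and chr9:128149203-128149452 (LCN2), all on the plus strand.
CXCL1: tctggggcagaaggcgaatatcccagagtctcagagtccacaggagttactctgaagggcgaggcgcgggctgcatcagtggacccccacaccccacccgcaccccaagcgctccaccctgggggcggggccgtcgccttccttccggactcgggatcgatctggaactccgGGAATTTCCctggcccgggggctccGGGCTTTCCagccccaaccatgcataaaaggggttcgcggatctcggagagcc
CXCL8: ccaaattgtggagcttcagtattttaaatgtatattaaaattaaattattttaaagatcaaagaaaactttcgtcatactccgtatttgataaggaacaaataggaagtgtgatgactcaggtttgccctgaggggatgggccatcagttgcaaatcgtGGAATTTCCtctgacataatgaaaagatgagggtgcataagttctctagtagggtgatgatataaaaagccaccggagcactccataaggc
CCL20: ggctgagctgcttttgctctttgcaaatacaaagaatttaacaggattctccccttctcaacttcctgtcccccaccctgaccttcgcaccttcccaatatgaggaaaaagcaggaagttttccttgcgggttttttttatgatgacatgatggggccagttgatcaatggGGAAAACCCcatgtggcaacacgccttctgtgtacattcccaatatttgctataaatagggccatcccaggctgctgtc
ICAM1: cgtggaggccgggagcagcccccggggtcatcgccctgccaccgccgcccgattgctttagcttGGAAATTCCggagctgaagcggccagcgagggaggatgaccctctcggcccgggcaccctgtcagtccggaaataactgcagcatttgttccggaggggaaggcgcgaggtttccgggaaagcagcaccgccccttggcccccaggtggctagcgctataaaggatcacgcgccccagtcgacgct
LCN2: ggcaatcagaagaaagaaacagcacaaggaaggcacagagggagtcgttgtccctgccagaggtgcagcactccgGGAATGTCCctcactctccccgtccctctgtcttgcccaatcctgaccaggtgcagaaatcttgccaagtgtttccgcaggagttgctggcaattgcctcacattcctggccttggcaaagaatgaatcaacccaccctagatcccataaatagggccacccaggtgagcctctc
The first base of a match lay 78 and 53 bases before the start in CXCL1, 91 in CXCL8, 79 in CCL20, 186 in ICAM1 and 175 in LCN2. CXCL3 held matches at 78 and 53 bases and CXCL2 at 77 and 53. NFKBIZ, a gene that fell, also held a match, at 222 bases. None was found in these windows of ZC3H12A, MMP7, PIGR and CLK1, which rose, or of KLF6, which fell. Of the 91 protein-coding genes higher at the medium dose, 74 had a promoter in the table and 31 of those (41.9%) held a match. The share was 17.6% (9 of 51) for the lower protein-coding genes, 19.9% for all tested protein-coding genes and 17.1% for all 27305 promoters. Close paralogs with similar promoters, such as CXCL1, CXCL2 and CXCL3, are counted separately in these shares. A match is a description of letters, and binding was not measured.

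Among NF-kB subunits and feedback inhibitors, 7 of 23 measured genes were higher and 1 was lower, with a list median of 0.13. The higher count was 4 with the library-part term, 3 without medium-dose replicate 3 and 2 within the earlier-numbered libraries. ZC3H12A, an RNase that degrades cytokine transcripts, was at 17.0, 17.6 and 18 CPM in vehicle and at 25.8, 27.3 and 27.8 CPM at the medium dose (log2 difference 0.62 ± 0.06, adjusted p = 2.79e-10). BIRC3, a ubiquitin ligase of TNF receptor signalling, was at 3.56, 4.92 and 4.10 CPM against 8.99, 9.03 and 7.90 CPM (1.03 ± 0.13, adjusted p = 7.94e-08). The libraries of the groups were fully apart for both, and both genes were also called within the earlier-numbered libraries.

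NFKBIA, which encodes the inhibitor IkB-alpha, rose from 20.9, 20.5 and 20.1 CPM to 26.0, 27.8 and 28.3 CPM (log2 difference 0.42 ± 0.06, adjusted p = 1.53e-05), with 0.34 and an adjusted p of 0.0656 within the earlier-numbered libraries. TNFAIP3, the deubiquitinase A20, rose by 0.70 ± 0.16 (adjusted p = 0.0106), a call that was lost without medium-dose replicate 3 (0.55, adjusted p = 0.127) or vehicle replicate 1 (0.52, adjusted p = 0.131). NFKB2, TNIP1 and TNIP2 passed only without the library-part term, with log2 differences of 0.33, 0.29 and 0.21 and adjusted p of 0.217, 0.219 and 0.144 with it, and each lost its call in at least 4 of the 6 fits that left out 1 library. NFKBIZ, an atypical nuclear IkB protein that assists NF-kB at selected genes, went the other way. It was at 64.1, 65.3 and 62.7 CPM in vehicle and 53.1, 50.1 and 45.2 CPM at the medium dose, and fell by 0.37 ± 0.06 on the log2 scale (adjusted p = 3.8e-05).

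Adhesion, complement and acute-phase genes were the third group, with 7 of 17 measured effectors higher and none lower (list median 0.17). The count was 8 with the library-part term, which added TNFAIP2, 7 without medium-dose replicate 3 and 6 within the earlier-numbered libraries. ICAM1, the adhesion molecule that leukocytes bind, was at 3.97, 4.37 and 3.91 CPM in vehicle and at 7.75, 7.81 and 9.67 CPM at the medium dose. The lowest treated library lay well above the highest vehicle library, and the log2 difference was 1.04 ± 0.11 (adjusted p = 4.63e-09). C3, the central complement component, had 3, 0 and 2 counts in vehicle and 53, 53 and 76 at the medium dose, a ratio of 50.6 with a counting interval of 21.3 to 158.

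CFB, complement factor B, rose from 1.68, 1.10 and 1.16 CPM to 3.19, 4.40 and 4.11 CPM (log2 difference 1.58 ± 0.15, adjusted p = 1.2e-10). MMP7, the matrix protease matrilysin, rose from 33.6, 33.3 and 33.2 CPM to 50.2, 48.3 and 48.8 CPM (0.56 ± 0.07, adjusted p = 4.71e-08). SOD2, the mitochondrial superoxide dismutase, rose by 0.20 ± 0.04 (adjusted p = 0.00513, and 0.0509 without vehicle replicate 3). These 3 genes differed in size but each had its groups apart. The acute-phase genes SAA1 and SAA2 had no count in vehicle and 30 and 14 counts over the medium-dose libraries (adjusted p = 9.03e-06 and 0.00747). SAA1 and SAA2 are near-identical copies whose counts depend on how shared reads were divided. With no count in vehicle they passed the filter through other groups and could not have been called lower. C3, with 3, 0 and 2 counts in vehicle, also passed through groups where it is higher and could hardly have been called lower. The share higher in this list therefore depends in part on that filter.

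The list of antimicrobial and mucosal defence proteins had 3 of 11 measured members higher: PI3, LCN2 and PIGR, also with the library-part term, without medium-dose replicate 3 and within the earlier-numbered libraries. With the term REG4, a secreted lectin, was lower (adjusted p = 0.0467). The list median was 0.31. PI3, which encodes the elastase inhibitor elafin, was at 4.40, 4.40 and 4.01 CPM in vehicle and at 21.7, 21.1 and 21.3 CPM at the medium dose. The 3 treated libraries were nearly level at 5.00 times vehicle, with a log2 difference of 2.32 ± 0.09 (adjusted p = 2.43e-25). LCN2, the iron-sequestering lipocalin, was at 84.9, 88.6 and 83.1 CPM in vehicle and at 135, 150 and 162 CPM at the medium dose (0.80 ± 0.09, adjusted p = 4.71e-08, and 0.64 ± 0.07 with the term). PIGR, the receptor that carries IgA across epithelium, went from 0.269, 0.419 and 0.275 CPM to 3.49, 2.73 and 3.33 CPM (3.27 ± 0.24, adjusted p = 1.34e-14). At so low a vehicle level PIGR had little room to be called lower. The receptors and adaptors of innate signalling did not share these calls: 0 of 22 passed, with a median of 0.01.

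**Figure D3:**
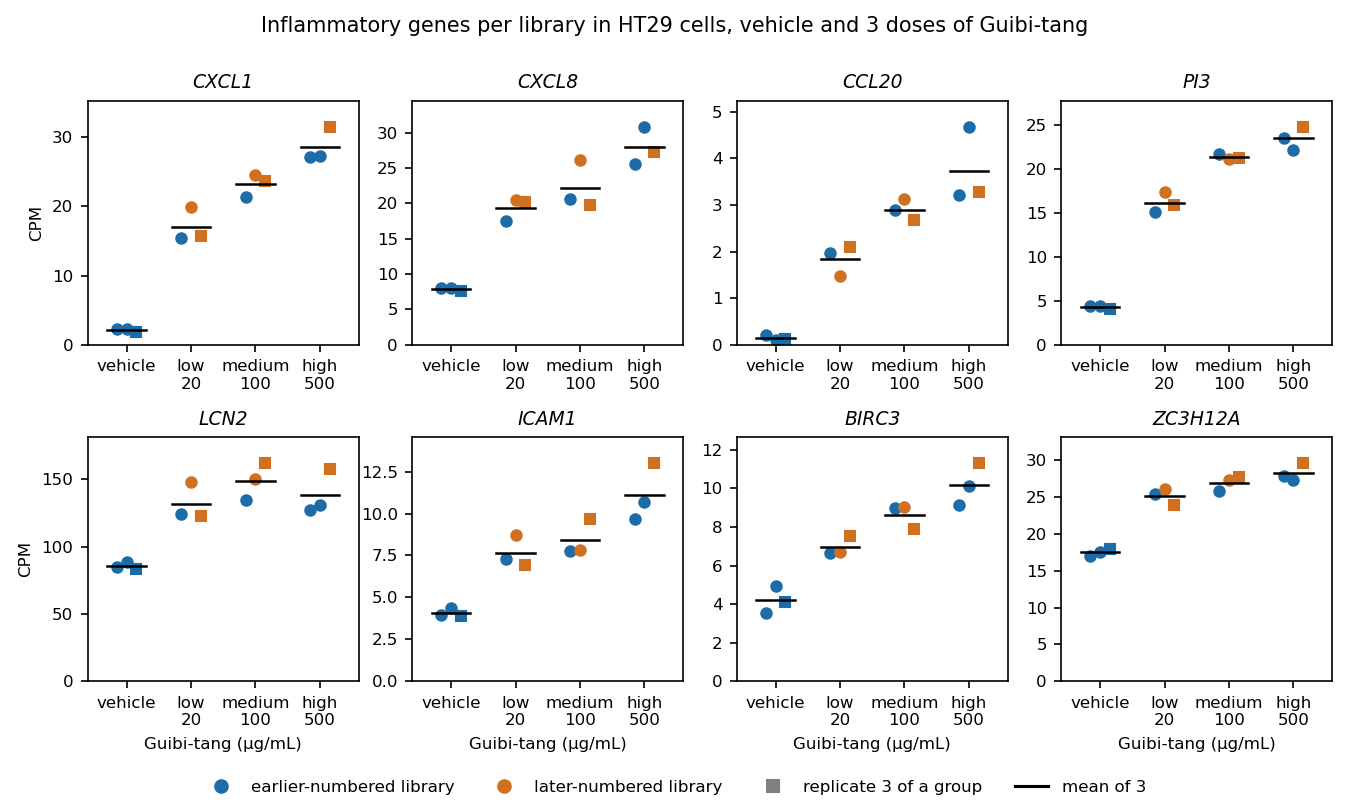
CPM of 8 genes in each vehicle library and each library of 3 Guibi-tang doses (µg/mL), with bars at the mean of 3, colours for the library part and squares for replicate 3. At the medium dose all libraries of each gene, of either part, lie above all vehicle libraries, as with CXCL1 at 21.4 to 24.6 against 1.80 to 2.22 CPM.

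Interferon-stimulated genes rose by smaller amounts. Of 29 measured, 8 were higher and none lower, 8 with the library-part term (IFI27 in place of GBP2), 7 without medium-dose replicate 3 and 5 within the earlier-numbered libraries, and the list median was 0.40. IFIH1, the cytosolic RNA sensor MDA5, was at 6.55, 6.99 and 7.25 CPM in vehicle and 11, 11.2 and 10.5 CPM at the medium dose (log2 difference 0.65 ± 0.09, adjusted p = 8.66e-07). IRF9, the DNA-binding subunit of the interferon-activated complex ISGF3, was at 7.76, 7.20 and 5.35 CPM against 10.7, 11.4 and 11.1 CPM (0.71 ± 0.15, adjusted p = 0.00575). IFI6, an interferon-induced protein of mitochondria, was at 3.56, 3.27 and 3.15 CPM against 6.86, 6.19 and 4.48 CPM (0.81 ± 0.18, adjusted p = 0.0114).

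Medium-dose replicate 3 was the lowest of its group for IFI6, yet above vehicle, and the groups were apart for each of these genes. IFI44, IFIT3 and OAS1 rose by 0.68 ± 0.14, 0.40 ± 0.09 and 0.40 ± 0.10 (adjusted p = 0.00553, 0.0125 and 0.0233). GBP2, a guanylate-binding protein, rose by 0.29 ± 0.07 (adjusted p = 0.0371), with an adjusted p of 0.312 with the term. IRF9 and IFI44 lost their calls without vehicle replicate 3 and IFI6 without vehicle replicate 2 or 3 or medium-dose replicate 2. IFIT3 lost its call in 3 of the 6 fits that left out 1 library (adjusted p up to 0.0888), and OAS1 and GBP2 in 5 (up to 0.154 and 0.323). Of 15 genes of MHC class I presentation, TAP2, a subunit of the peptide transporter, and ERAP2, a peptide-trimming protease, were higher. TAP2 rose by 0.23 ± 0.06 (adjusted p = 0.0281) and ERAP2 by 0.20 ± 0.05 (adjusted p = 0.0485), ERAP2 not with the term (adjusted p = 0.164). TAP2 did not pass when any 1 of the 6 libraries was left out, and ERAP2 passed only when that library was vehicle replicate 2.

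Kinases that phosphorylate splicing factors and SR proteins had 3 of 23 higher, 1 with the library-part term and 3 without medium-dose replicate 3 (list median 0.06). CLK1, a kinase that releases SR proteins from nuclear speckles, was at 30.9, 33.5 and 31.8 CPM in vehicle and at 46.5, 50.4 and 49.4 CPM at the medium dose. All treated libraries were above all vehicle libraries, the log2 difference was 0.60 ± 0.06 (adjusted p = 6.84e-10), and it was 0.51 ± 0.06 with the term. Vehicle had the lowest CLK1 mean of all 19 groups, 32.1 CPM against 41.6 to 50.7 CPM in the groups given extract, Saengmaek-san at the medium dose among them at 47.7 CPM. CLK4 and SRSF5 rose by 0.30 ± 0.08 (adjusted p = 0.035) and 0.27 ± 0.06 (adjusted p = 0.00835), with adjusted p of 0.219 and 0.111 with the term. CLK4 lost its call without vehicle replicate 1, 2 or 3 or medium-dose replicate 2 (adjusted p up to 0.344). SRSF5 lost its call without vehicle replicate 1 or medium-dose replicate 2 (adjusted p up to 0.192).

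**Figure D4:**
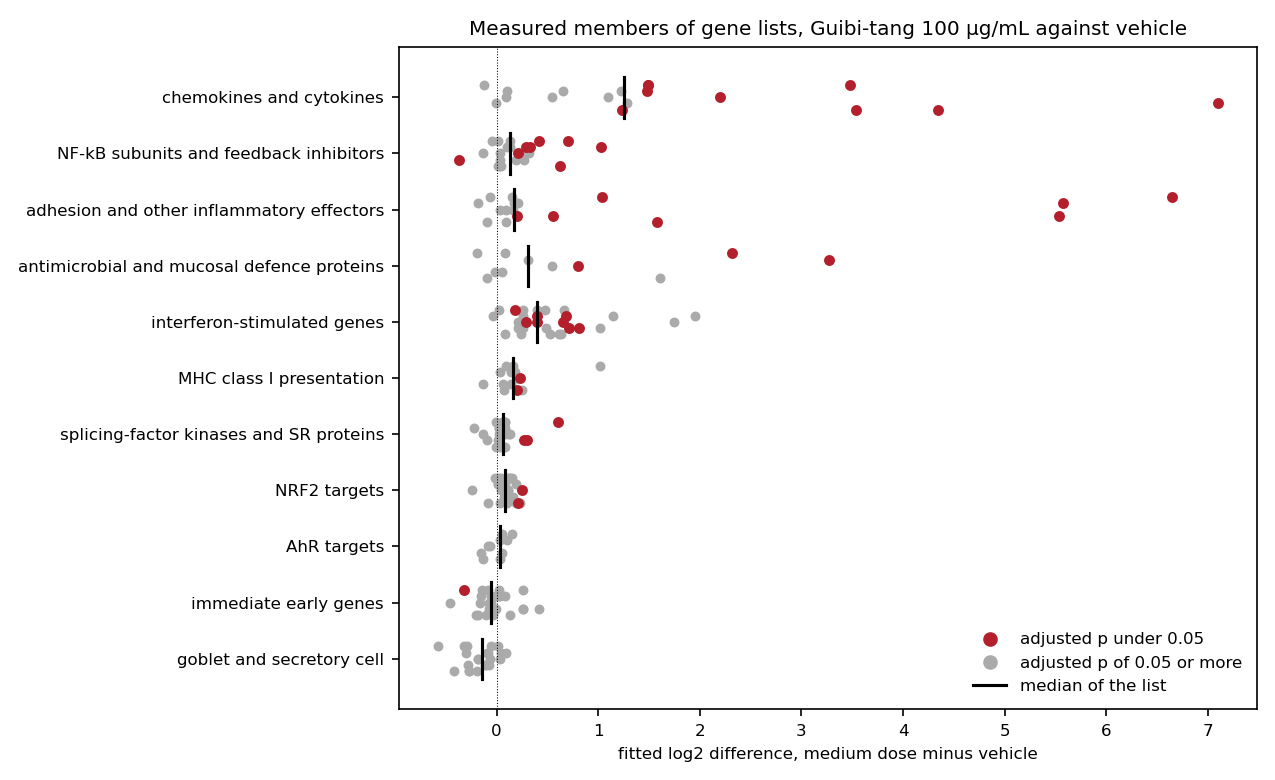
Each point is a measured member of a gene list at its fitted log2 difference, medium dose minus vehicle, red where the adjusted p was under 0.05, with a black bar at the list median. The chemokine median lies at 1.25, that of interferon-stimulated genes at 0.40, and those of AhR and NRF2 targets at 0.03 and 0.08.

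Most genes that fell did so by less. KLF6, a zinc-finger factor of the immediate early kind, was at 133, 133 and 134 CPM in vehicle and at 106, 113 and 102 CPM at the medium dose. The vehicle libraries were nearly level and all treated ones lower, with a log2 difference of -0.32 ± 0.04 (adjusted p = 1.98e-08, and 1.67e-09 with the term). Vehicle had the highest KLF6 mean of all 19 groups, 133 CPM against 106 to 113 CPM in the groups given extract. For both CLK1 and KLF6, then, the vehicle mean lay beyond that of every extract group, and comparisons of all extracts share these 3 vehicle libraries. SOX9, a transcription factor of intestinal crypts and a WNT target, fell from 182, 179 and 190 CPM to 146, 151 and 160 CPM (-0.27 ± 0.06, adjusted p = 0.0063, and 0.0582 without vehicle replicate 3). EDN1, the peptide endothelin-1, fell from 25.1, 22.1 and 25.2 CPM to 16.7, 20.9 and 19 CPM (-0.35 ± 0.08, adjusted p = 0.0114). EDN1 lost its call without vehicle replicate 1 (0.0758), vehicle replicate 3 (0.0876) or medium-dose replicate 1 (0.0561). EREG, the EGF-receptor ligand epiregulin, was at 97.3, 111 and 107 CPM against 87.5, 90.4 and 76.7 CPM, a log2 difference of -0.31 ± 0.07 (adjusted p = 0.00742). Its adjusted p was 0.0919 without medium-dose replicate 3, and 0.0649 and 0.0504 without vehicle replicate 2 or 3.

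The signalling kinases MAP3K9 (-0.40 ± 0.07, adjusted p = 0.00048) and MAST3 (-0.38 ± 0.07, adjusted p = 0.00143) fell in both fits. So did SYNJ1, a phosphoinositide phosphatase of endocytosis (-0.33 ± 0.09), AHDC1 (-0.31 ± 0.07), BCORL1, a transcriptional corepressor (-0.29 ± 0.07), and DNAJB1, an HSP40 cochaperone (-0.21 ± 0.04, adjusted p = 0.00223). The adjusted p of SYNJ1, AHDC1 and BCORL1 were 0.046, 0.0198 and 0.0168, and they lost their calls in 4, 4 and 2 of the 6 fits that left out 1 library. MAP3K9 and MAST3 held their calls in 14 of 15 alternatives and lost them within the earlier-numbered libraries, where the medium dose has 1 library. Without the term alone, PRR36, DUSP1, UBN2, AP5B1 and SLC14A1 were lower, by log2 differences of -0.56 to -0.36, and CCDC71, PGBD2, MRPL55 and ASS1 higher, by 0.33 to 0.37. Each of these 9 lost its call in at least 4 of the 6 fits that left out 1 library.

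Immediate early genes had 1 of 27 lower (KLF6) and 5 with the term for the library part, the others being FOS, JUN, MYC and ZFP36L1. FOS, a subunit of AP-1, was at 22.4, 18.7 and 21.7 CPM in vehicle and at 13.8, 17.9 and 18.3 CPM at the medium dose, and its difference of -0.32 ± 0.09 (adjusted p = 0.0679) was -0.51 ± 0.08 with the term (adjusted p = 1.47e-05). JUN, its partner, was at 80.2, 79.8 and 81.0 CPM against 60.8, 75.9 and 73.6 CPM (-0.20 ± 0.10, adjusted p = 0.355, and -0.41 ± 0.07 with the term, adjusted p = 0.000114). In both genes the lowest value was that of the earlier-numbered medium-dose library, the one that shares a part with vehicle. MYC was at -0.08 ± 0.08 (adjusted p = 0.642) and -0.24 ± 0.05 with the term (adjusted p = 0.00609), while EGR1 passed in neither (-0.46 ± 0.13, adjusted p = 0.0678, and 0.0998 with the term). The MAPK phosphatases DUSP1 and DUSP8, 2 of 20 in their list, were lower without the term (-0.43 ± 0.11 and -0.34 ± 0.09) and not with it (adjusted p = 0.152 and 0.173), and neither passed without medium-dose replicate 3.

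Detoxification genes showed little at this dose. None of 10 AhR targets passed, with or without the term (list median 0.03). CYP1A1, the best-known AhR target, was at 0.336, 0.576 and 0.550 CPM in vehicle and 0.511, 0.366 and 0.658 CPM at the medium dose, with overlapping groups and a 95% interval of the log2 difference of -0.68 to 0.77. CYP1B1 was at 44.6 to 45.2 CPM against 43.9 to 47.9 CPM, and its interval ran from -0.12 to 0.18. Of 32 NRF2 targets, GCLC, the catalytic subunit of glutathione synthesis, and KEAP1, the inhibitor of NRF2, were higher by 0.25 ± 0.06 and 0.21 ± 0.05 (adjusted p = 0.0127 and 0.0194). Neither passed with the term (adjusted p = 0.0889 and 0.0838), and KEAP1 did not pass without medium-dose replicate 3 (0.0997). HMOX1, haem oxygenase 1, was at 11, 10.4 and 9.79 CPM in vehicle and 10.1, 9.44 and 11.2 CPM at the medium dose, with an interval of -0.23 to 0.20, and that of GCLM was -0.04 to 0.27.

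Differentiation, growth and metabolism lists held few calls. None of 22 goblet and secretory cell genes passed (median -0.14), REG4 alone with the term, and MUC2, the gel-forming mucin of the colon, was at 29, 28.5 and 30.5 CPM in vehicle and at 23.0, 16 and 19.7 CPM at the medium dose. Its groups were apart and its log2 difference of -0.58 ± 0.16 had an adjusted p of 0.0518, and 0.164 with the term. MUC2 passed with DESeq2 (adjusted p = 0.0107), with no filter, with a replicate block, with only the 2 groups fitted and without medium-dose replicate 1. CEACAM7, an adhesion molecule of mature colonocytes, was the 1 of 14 enterocyte genes that rose (1.65 ± 0.27, adjusted p = 0.000121), and DHRS3, a retinal reductase, the 1 of 13 retinoid genes (0.32 ± 0.06, adjusted p = 0.00263). CEACAM7 held its call in 13 of 14 alternatives, with log2 differences of 1.34 to 1.97. It lost the call within the earlier-numbered libraries, where the medium dose has 1 library. DHRS3 lost its call there too, and also without medium-dose replicate 2 (adjusted p = 0.0931). Single members also passed among heat shock chaperones (HSPA4 higher, DNAJB1 lower), unfolded protein response genes (SDF2L1), G1/S genes (MCM7), MYC and ribosome biogenesis genes (RRP9) and proteasome subunits (PSMC3), of which MCM7 and DNAJB1 passed with the term. Only DNAJB1 of these passed without medium-dose replicate 3.

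No member passed without the term among 32 G2/M genes, 76 cytosolic ribosomal proteins, 22 p53-responsive genes, 31 ATF4 genes, 29 cholesterol genes or 13 mitochondrially encoded genes, the last with a median of -0.22. MKI67, the proliferation marker, had an interval of -0.11 to 0.26, and CDKN1A, the cell cycle inhibitor p21, one of -0.16 to 0.25. TXNIP, a glucose-responsive inhibitor of thioredoxin, was at 52.8, 54.4 and 50.9 CPM against 45.7, 49.1 and 46.0 CPM (-0.17 ± 0.06, adjusted p = 0.175).

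The steps below and above the medium dose set the Guibi-tang groups against each other, with the spread estimated over all 57 libraries, vehicle included. Between the low and the medium dose 0 of 17049 genes passed (0.00%) in edgeR's quasi-likelihood test, 652 had an unadjusted p under 0.05, and DESeq2 called 4. The count was 2 without medium-dose replicate 1 and 0 without any of the other 5 libraries. PI3 was at 15.1, 17.4 and 15.9 CPM at the low dose and 21.7, 21.1 and 21.3 CPM at the medium dose, a log2 difference of 0.41 ± 0.08 (adjusted p = 0.105). CXCL1 was at 15.4, 19.9 and 15.7 CPM against 21.4, 24.6 and 23.6 CPM (0.46 ± 0.11, adjusted p = 0.383). Medium-dose libraries were above low-dose ones for both, and with the library-part term these 2 genes were the ones that passed (adjusted p = 0.0318 each), though not when medium-dose replicate 3 was also left out. CXCL8, at 17.5, 20.4 and 20.2 CPM against 20.6, 26.1 and 19.8 CPM, overlapped between the doses (interval 0.02 to 0.38).

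Between the medium and the high dose 23 genes differed (0.135%), 20 higher and 3 lower at the high dose. The count was 25 with the term, and 2 when only these groups were fitted. NRF2 targets made up 10 of the 23, of 32 measured: HMOX1, NQO1, GCLC, GCLM, TXNRD1, AKR1B10, AKR1C1, AKR1C2, AKR1C3 and SQSTM1. The count was 10 with the term, 3 without medium-dose replicate 3 and 6 within the earlier-numbered libraries, while all calls in the comparison numbered 4 without that replicate, 89 without medium-dose replicate 1 and 11 without high-dose replicate 1 or 2. SQSTM1, the autophagy receptor p62, was at 340, 367 and 373 CPM at the medium dose and 455, 500 and 488 CPM at the high dose (log2 difference 0.42 ± 0.04, adjusted p = 1.52e-10). AKR1C2, an aldo-keto reductase with near-identical relatives, was at 15.3, 16 and 17.7 CPM against 26.6, 24.2 and 24.6 CPM (0.62 ± 0.11, adjusted p = 0.00343). The high-dose libraries lay above the medium-dose ones in both genes.

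HMOX1 was at 10.1, 9.44 and 11.2 CPM at the medium dose against 14, 14.9 and 14 CPM at the high dose (0.49 ± 0.10, adjusted p = 0.0248, and 0.0534 with the term). NQO1 and UGT1A6 were the 2 of 10 AhR targets that rose, by 0.23 ± 0.05 and 0.32 ± 0.07, and neither passed without medium-dose replicate 3 (adjusted p = 0.29 and 0.105). TXNRD1, thioredoxin reductase, rose by 0.28 ± 0.05 (adjusted p = 0.00721), UGT1A1, a glucuronosyltransferase that shares exons with UGT1A6, by 0.32 ± 0.06, and UAP1L1 by 0.46 ± 0.09. DHRS2, a short-chain dehydrogenase, and TGFBI, a matrix protein induced by TGF-beta, were lower at the high dose by log2 differences of -0.54 ± 0.11 and -0.24 ± 0.04, and the other lower gene was the pseudogene RCN1P2. Without medium-dose replicate 3 the adjusted p was 0.0624 for HMOX1, 0.0984 for TXNRD1, 0.0955 for UGT1A1, 0.189 for UAP1L1, 0.0538 for DHRS2 and 0.011 for TGFBI. No chemokine passed in this step without the term: CXCL1 differed by 0.30 ± 0.10 (adjusted p = 0.374), CXCL8 by 0.34 ± 0.09 (0.12) and ICAM1 by 0.39 ± 0.10 (0.132). With the term these had adjusted p of 0.0242, 0.0151 and 0.0226, and PI3 had 0.734 and an interval without the term of -0.03 to 0.29. Whether the NRF2 step above the medium dose differs from that below it was not tested.

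**Figure D5:**
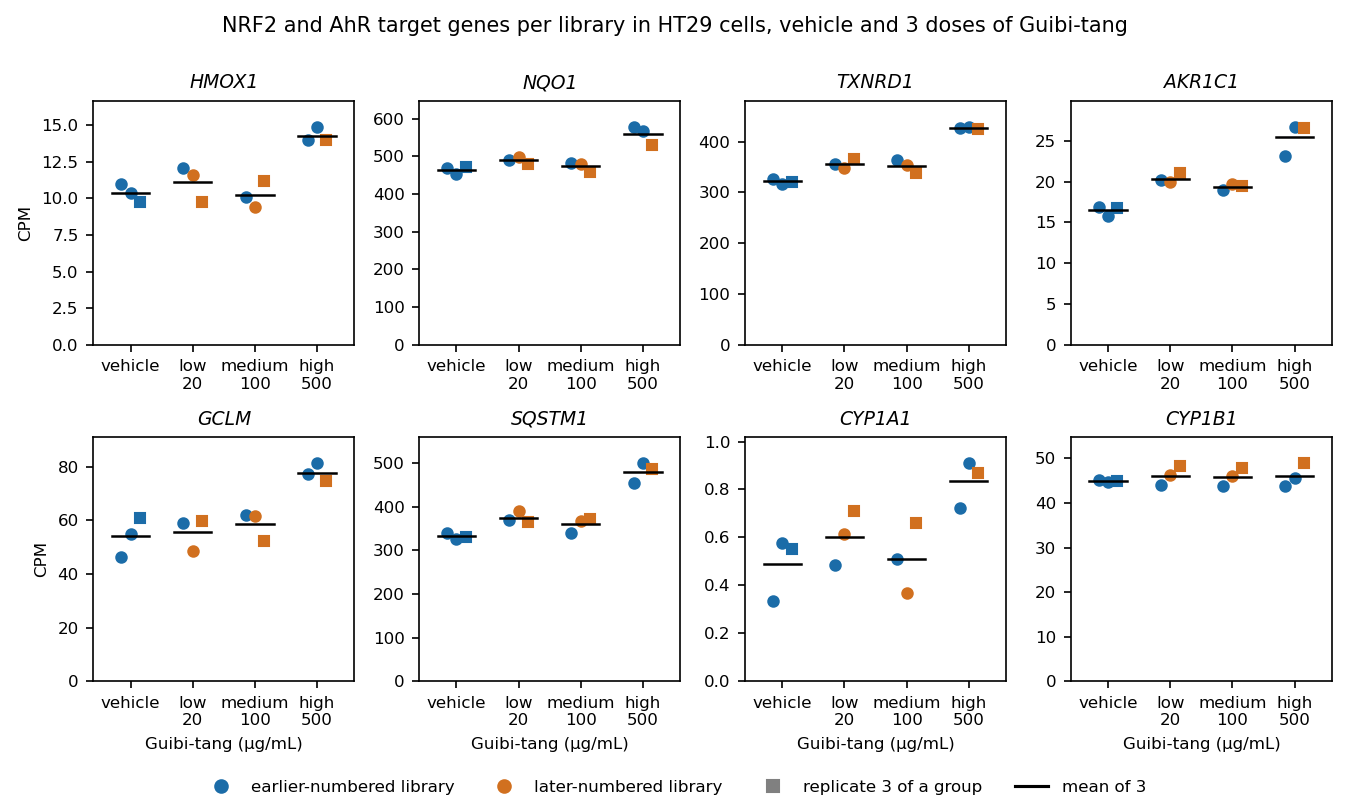
CPM of 8 NRF2 or AhR target genes in each vehicle library and each library of 3 Guibi-tang doses (µg/mL), with bars at the mean of 3, colours for the library part and squares for replicate 3. HMOX1 at the medium dose (9.44 to 11.2 CPM) overlaps vehicle (9.79 to 11 CPM), and the high-dose libraries (14 to 14.9 CPM) lie above both.

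Against Saengmaek-san at the same 100 µg/mL, a comparison whose means come from no vehicle library, Guibi-tang had 63 genes higher and 4 lower, 67 in all (0.393%). The count was 47 with the library-part term and 28 when only these groups were fitted, without the spread of the other libraries. The count was 210 without Guibi-tang replicate 1, 34 without Guibi-tang replicate 3, and 42 and 36 without Saengmaek-san replicate 1 or 2. Higher in Guibi-tang were 9 of 18 chemokines, 8 of 23 NF-kB genes, 7 of 17 effectors, 3 of 11 antimicrobial proteins and 5 of 29 interferon-stimulated genes, with 9, 7, 7, 3 and 3 with the term and 9, 5, 6, 3 and 2 without Guibi-tang replicate 3. Members near 0 in Saengmaek-san, such as C3 at a mean of 0.0110 CPM, could hardly have been called lower. These shares therefore depend in part on the low-count filter. CXCL1 was at 1.39, 1.46 and 2.42 CPM in Saengmaek-san and 21.4, 24.6 and 23.6 CPM in Guibi-tang (log2 difference 3.76 ± 0.15, adjusted p = 8e-25). PI3 was at 3.41, 3.55 and 4.11 CPM against 21.7, 21.1 and 21.3 CPM (2.54 ± 0.10, adjusted p = 2.06e-26). The rise was not particular to Guibi-tang. At the same dose the CXCL1 mean was 22.8 CPM in Soyo-san and 23.5 CPM in Okbyeongpung-san, other formulas, near the 23.2 CPM of Guibi-tang. Their PI3 means were 19.6 and 20.5 CPM against 21.4 CPM. In the single herbs Menthae Herba and Saposhnikoviae Radix CXCL1 was at 1.91 and 1.52 CPM and PI3 at 3.94 and 4.18 CPM. All libraries of Soyo-san and Okbyeongpung-san were later-numbered, and all those of the single herbs earlier-numbered. For these groups extract and library part cannot be told apart.

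LCN2 was at 88.7, 78.3 and 92.3 CPM in Saengmaek-san and 135, 150 and 162 CPM in Guibi-tang (0.79 ± 0.09, adjusted p = 8.49e-08). Guibi-tang libraries lay above Saengmaek-san libraries in all 3 genes, and these genes were also called within each library part, where 1 group is a single library whose spread is taken from other groups. CXCL8 differed by 1.89 ± 0.10, ICAM1 by 1.11 ± 0.12, CCL20 by 4.35 ± 0.32 and BIRC3 by 0.78 ± 0.12. RELB and NFKBIE, an NF-kB subunit and an inhibitor, were higher by 0.32 ± 0.08 (adjusted p = 0.0452, and 0.058 with the term) and 0.39 ± 0.09 (adjusted p = 0.0259), and TNFAIP2, a TNF-induced gene, by 0.26 ± 0.05. Of 16 alternatives, RELB was called in 3, NFKBIE in 5 and TNFAIP2 in 14. The 4 lower genes were IMPACT, a translation regulator (-0.31 ± 0.07), AFF1, an elongation factor (-0.20 ± 0.05), CAMK2D, a calcium-dependent kinase (-0.19 ± 0.05), and RBM3, a cold-inducible RNA-binding protein (-0.17 ± 0.04). IMPACT and RBM3 passed with the term (adjusted p = 0.0484 and 0.0446), AFF1 and CAMK2D did not (0.0628 and 0.0835). No gene was lower without Guibi-tang replicate 3 or within either library part.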

How the data were processed

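RNA-seq of HT29 cells was analysed from a table of 60675 genes in 60 libraries. The values are expected counts, deposited by the authors; FastQC 0.11.9, Trim Galore 0.6.5, STAR 2.7.3a, RSEM 1.3.3 and GRCh38 are named in the submitters' processing notes, and neither a strand setting nor an annotation release is given there. RSEM divides reads shared by similar genes, so values of close paralogs are estimates.

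Expected counts were rounded to whole numbers. Genes were filtered with filterByExpr and libraries scaled by TMM. edgeR 4.0.16 (R 4.3.3; robust quasi-likelihood test, Benjamini-Hochberg threshold 0.05) was fitted over 57 libraries in 19 groups of 3, with 38 residual degrees of freedom. The remaining 3 libraries, single per group, were left out. Total counts were 19.5 to 41.9 M per library. CPM scales a gene's count to the library total adjusted by TMM, not to gene length, and was not used to compare genes. Ratios carry exact intervals that cover counting error only. On simulated data of medium dose against vehicle (16890 genes), 56%, 84%, 94% and 98% of genes changed by 0.3, 0.5, 1 and 2 on the log2 scale were called, with 8 false calls. The simulation had no shift between library parts and no outlying library, and changed only genes with a mean of at least 1 CPM. These shares and the false calls may therefore not hold for the real libraries.

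Genes named are the 10 largest changes each way among protein-coding genes of at least 5 CPM with groups apart that passed with and without the library-part term, the 5 largest passing only without it, the 5 largest each way in other comparisons, up to 4 members per list, and fixed readouts; others, given to show the range or calls of a list, were named with their values seen. The members and lists were chosen with earlier results of these data known. Alternatives were other size factors, no filter, the library-part term, a replicate block, fewer libraries, DESeq2 1.42.0 and leaving out each library. The term combined with leaving out medium-dose replicate 3, and list counts without it, were chosen after seeing the data. Promoters are from RefSeq (GRCh38.p14). The values of 1 member of a list are not reported here.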

Additional observations from a re-analysis of the deposited data

How the results depend on the processing

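Of 97 genes named for the medium dose against vehicle, 84 were called, 26 of them under every alternative that gave an adjusted p, and none of the 84 changed sign. Counts of calls moved more. For medium dose against vehicle (183) they were 794 with no filter on low counts, 99 with only the 2 groups fitted, 61 in the earlier-numbered libraries, 269 with DESeq2 and 71 to 604 with 1 library left out. With a replicate block 247 genes passed, and 94 with the replicate block and the library-part term. The labels state no pairing by replicate number. Correlations of same-numbered deviations were -0.037, 0.028 and -0.1 for medium against vehicle, where only replicate 2 correlated best with its own number. They were 0.231, 0.119 and 0.066 for medium against low, where every library did, a hint from the data only. In the comparisons with the high dose and with Saengmaek-san 2 of 3 did. For high against medium (23) the counts were 276 with no filter, 2 with only the 2 groups, 9 and 1 in the earlier- and later-numbered libraries, 35 with DESeq2, 35 with the replicate block and the term (26 with the replicate block alone), 15 with the term but without medium-dose replicate 3, and 4 to 89 with 1 library left out. For medium against low (0) they were 183 with no filter, 2 with the term, 2 with the replicate block and the term (0 with the replicate block alone), 4 with DESeq2 and 0 to 2 with 1 library left out. For Guibi-tang against Saengmaek-san (67) they were 474 with no filter, 28 with only the 2 groups, 22 and 19 in the earlier- and later-numbered libraries, 64 with the replicate block, 41 with the term but without medium-dose replicate 3, and 34 to 210 with 1 library left out. The causes were not tested. Signs turned in 5 uncalled genes. CYP1A1 was at -0.10 with the term, -0.22 with the replicate block and the term, -0.27 with the term but without medium-dose replicate 3, and -0.18 to 0.24 with 1 library left out. CYP1B1 was at -0.05, -0.11 and -0.06 in the same order, -0.04 in the earlier-numbered libraries and 0.00 to 0.06 with 1 library left out. HMOX1 was at 0.05 with the term and at -0.09 to 0.04 with 1 library left out, MKI67 at -0.05, -0.05 and -0.08 in the order given for CYP1A1, and CDKN1A at 0.00 to 0.08 with 1 library left out. Genes with a few counts per library, such as SAA2 and CXCL5, are limited by depth.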

Other observations

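Genes outside the lists also differed at the medium dose, and those given here were chosen after their values were seen. SDC4, a cell-surface heparan sulphate proteoglycan, was at 85.2, 80.3 and 83.1 CPM in vehicle and at 105, 106 and 102 CPM at the medium dose (edgeR log2 difference 0.34, adjusted p = 3.06e-05). MIR3142HG, the host transcript of miR-146a, had 0, 1 and 0 counts in vehicle and 13, 13 and 11 at the medium dose (ratio 51.5, counting interval 8.68 to 2.09e+03). Both had the groups fully apart. IL4I1, a secreted amino acid oxidase, rose by 1.55 (adjusted p = 0.00263), CCDC88B by 0.89 (adjusted p = 3.31e-05), SLFN5, an interferon-responsive gene, by 0.44 (adjusted p = 0.000129), and MAP3K8, a kinase held by the NF-kB precursor p105, by 0.37 (adjusted p = 0.00372). Calls held in 13 of 14 alternatives for IL4I1, 14 of 15 for CCDC88B, 15 of 15 for SLFN5 and 12 of 15 for MAP3K8. The lower genes included NOTCH1, a receptor of cell fate decisions, at 121, 113 and 115 CPM against 93.9, 99.7 and 104 CPM (-0.23, adjusted p = 0.0159), and lost its call without vehicle replicate 1 (0.121) or medium-dose replicate 1 or 2 (0.0516 and 0.0623). GATA2, a transcription factor, was at 183, 171 and 182 CPM against 138, 157 and 154 CPM (-0.25, adjusted p = 0.00893), and lost its call without vehicle replicate 1 or 3 (0.0667 and 0.065).

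The CXC chemokine genes lie together on chromosome 4. The window was set after the values were seen, from the start of CXCL8 to the end of EREG, which were both called. Between 73740506 and 74388751 (GRCh38) 8 protein-coding genes were tested. Of these, CXCL8, CXCL6, CXCL1, CXCL5, CXCL3 and CXCL2 were higher at the medium dose, EREG was lower, and MTHFD2L, a mitochondrial folate enzyme, differed by 0.03 (edgeR adjusted p = 0.868).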
